A study of Mus musculus with 18 samples.

Results

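The genes of the epidermal differentiation complex, a cluster on mouse chromosome 3, were followed in NMuMG cells treated with halofuginone (HF) or with its non-functional analog MAZ1310. Members were taken by name: every gene whose symbol on the array starts with Sprr, S100a or Lce followed by a number, with Ivl, Lor, Flg, Rptn and Crct1 added. This gave 41 of the 16675 genes of the array, with 45 of its 21973 probes: 12 Sprr, 12 S100a and 12 Lce genes and the 5 added ones. A fall of Sprr2h was known when the members were chosen, and the question was which of its neighbours moved with it. Of the 41 genes, 40 matched a current symbol on chromosome 3 of the mouse assembly GRCm38.p6, and Sprr2j matched as an older name of Sprr2j-ps, a transcribed pseudogene. In the interval that runs from S100a1 to S100a10 the annotation holds 58 genes of such names.

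NMuMG is an epithelial line derived from normal mouse mammary gland. The HF group received 10 nM HF, an alkaloid derivative, and the MAZ1310 group received 10 nM MAZ1310 for the same 8 hr, both added shortly after the cells had been plated in complete medium with serum and insulin. Each group held 3 cultures, which the labels call biological replicates, and the RNA of each culture was hybridized to 3 technical arrays, giving 18 single-color arrays. A single line under 1 dose and 1 time limits what these groups can model, there was no untreated group, and the labels do not say how the cultures were kept apart.

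The proteins encoded in this cluster build and regulate the outer surface of stratified epithelia. Involucrin, loricrin and the small proline-rich (Sprr) and late cornified envelope (Lce) proteins are cross-linked by transglutaminases into the cornified envelope, in which Sprr proteins act as bridges between the larger ones. The S100A proteins encoded at both ends of the cluster are small EF-hand proteins, most of which bind calcium, and many of them are made far outside the epidermis. A simple mammary epithelium does not cornify, so most envelope genes of the cluster are not known for a role there.

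Values are log2 intensities, the median over the probes of a gene and the mean over the technical arrays of a culture, and a fold change is HF over MAZ1310. An adjusted p is from limma with Benjamini-Hochberg adjustment over all 16675 genes, and a gene was called when it was under 0.05. The brightness of a probe depends on its sequence, so intensities were compared between treatments and not read as amounts between genes. As a level for dim probes, the 95th percentile of 778 olfactory and vomeronasal receptor genes was used, which lay at 8.75, with a receptor median of 6.42. The arrays of 1 treatment had median correlations of 0.951 to 0.981 with each other. No scan or hybridization batch is named in the sources used here. Krt8 and Krt18, keratins of simple epithelia, were near the top of the scale in both treatments, whereas Epcam averaged 6.07 in HF and 5.94 in MAZ1310 cultures, below the receptor level, and 6 of 10 luminal and general epithelial markers lay above that level.

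Of the 41 genes, 5 were lower in HF cultures and 0 were higher. The 5 were Sprr2h, Sprr2j, Ivl, S100a4 and S100a8, a share of 12.2%, while over all genes tested 1.57% were called lower and 1.45% higher (3.02% in either direction). Without Sprr2h, 4 of 40 were lower (10.0%). At an unadjusted p under 0.05, 7 of the 41 were lower and 4 higher, which is 26.8% of them against 16.5% of all genes. The median log2 fold change was -0.11 over the 41 genes and -0.002 over all genes. In 7 genes every HF culture lay below every MAZ1310 culture (17.1%, against 9.85% of all genes), and in 5 every HF culture lay above (12.2%, against 11.2% of all genes). Sprr2h, whose fall was known beforehand, is counted in both groups of 7 lower genes and in the median over the 41 genes. RNA was measured in bulk, so fewer cells with a transcript and less of it per cell cannot be told apart.

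**Figure D1:**
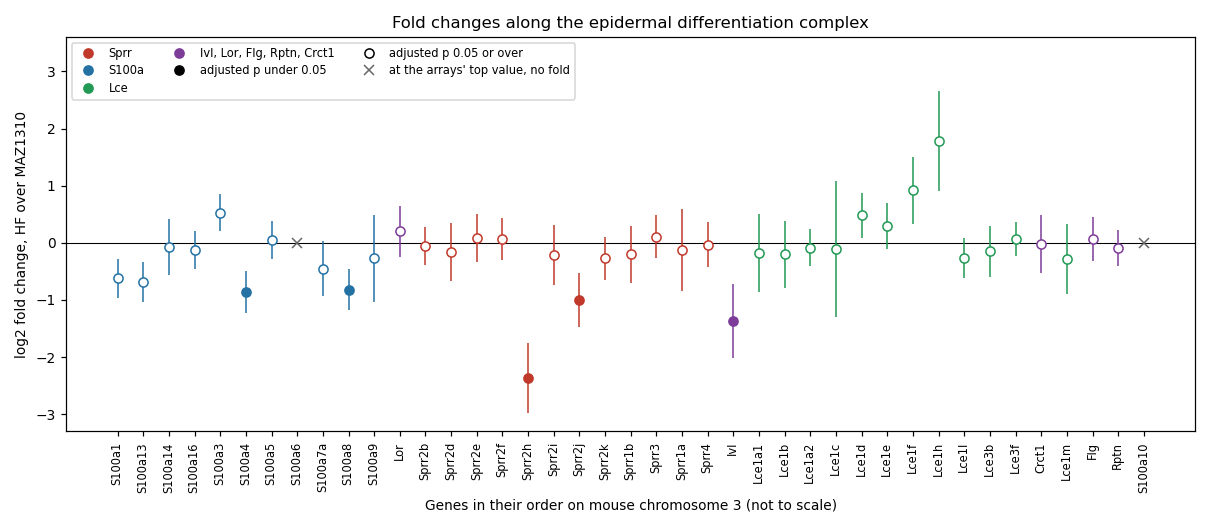
Log2 fold change, HF over MAZ1310, of each gene (points, with 95% confidence intervals from limma), placed by its order on chromosome 3 and colored by family, with filled points for an adjusted p under 0.05 and crosses for S100a6 and S100a10, whose probes sat at the top value of most arrays. Sprr2h stands at -2.36 between Sprr2f at 0.07 and Sprr2i at -0.21, and Lce1h at 1.79 is the highest point.

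Sprr2h, a proline-rich bridge protein of the envelope, had the largest change of the 41 genes. The gene was picked for its fall in these data. Its adjusted p and array counts therefore describe that fall and are no separate support. Its log2 intensity was 7.92, 8.75 and 8.87 in the HF cultures and 10.70, 11.02 and 10.92 in the MAZ1310 cultures. The groups were far apart, and all 9 HF arrays, at most 9.10, were below the lowest MAZ1310 array, at 10.24. The means were 8.51 ± 0.52 in HF and 10.88 ± 0.16 in MAZ1310 cultures (SD, n = 3 each), and the intensity as read was 5.15-fold lower in HF (log2 fold change -2.36, SE 0.26, 95% confidence interval -2.97 to -1.75, limma adjusted p = 0.00956). HF replicate 1 was the lowest culture, and the HF mean was itself below the receptor level. The call did not hold without HF replicate 2 (log2 fold change -2.48, adjusted p = 0.0524) or without MAZ1310 replicate 2 (-2.29, adjusted p = 0.0566), although the size of the change stayed close.

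Sprr2j, named in the reference as a pseudogene among the Sprr2 genes, was also lower. It read 8.04, 7.55 and 7.89 in HF cultures and 9.05, 8.51 and 8.92 in MAZ1310 cultures. Every HF culture was below every MAZ1310 culture, as were 8 of the 9 HF arrays. The means of 7.83 ± 0.25 in HF and 8.83 ± 0.28 in MAZ1310 (SD, n = 3 each) gave a log2 fold change of -0.999 (SE 0.20, adjusted p = 0.0478). All HF cultures were below the receptor level and the MAZ1310 mean was barely above it, so no fold is read from these intensities. This call was lost when any 1 of the 6 cultures was left out, with adjusted p between 0.0892 and 0.149.

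The other Sprr2 genes did not pass the test. For Sprr2b, Sprr2d, Sprr2e, Sprr2f, Sprr2i and Sprr2k the log2 fold changes ran from -0.27 to 0.09, with adjusted p from 0.511 to 0.936 and confidence intervals inside -0.75 to 0.51. Their means over the 6 cultures, 6.72 to 8.08, were all below the receptor level. Sprr2f and Sprr2i flank Sprr2h on the chromosome among the measured genes. Sprr2f averaged 6.76 ± 0.12 in HF and 6.69 ± 0.22 in MAZ1310 cultures, and Sprr2i averaged 6.85 ± 0.18 in HF and 7.06 ± 0.42 in MAZ1310 cultures (SD, n = 3 each). The log2 fold change of Sprr2h was 2.43 (SE 0.28) more negative than that of Sprr2f and 2.15 (SE 0.50) more negative than that of Sprr2i, given as a description because Sprr2h was picked for its fall. Sprr2 genes are close paralogs, the sequences of the probes were not used here, and whether a probe also takes up a paralog's transcript was not tested.

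The promoters of these genes are shown as a description of sequence, because they share short elements. They cannot be set against the changes, since the 6 Sprr2 genes not called had means of 6.72 to 8.08, below the receptor level. A fall as large as that of Sprr2h, which was picked for its fall, could hardly be read there. Windows from 250 bases before to 50 bases after each annotated start were taken from RefSeq for GRCm38.p6, where 36 of the 41 genes have one (Sprr2j has none). They are written 5′ to 3′ on the strand of the gene, with capitals for matches, on either strand, to an AP-1 element (TGANTCA), to an octamer (ATGCAAAT, here read on the other strand as ATTTGCAT) and to a TATA box (TATAAA). The windows are, in the order printed, chr3:92385435-92385734 on the plus strand for Sprr2h, chr3:92364937-92365236 (plus) for Sprr2f, chr3:92407741-92408040 (plus) for Sprr2i, chr3:92573686-92573985 (minus) for Ivl and chr3:92765016-92765315 (minus) for Lce1h.
Sprr2h: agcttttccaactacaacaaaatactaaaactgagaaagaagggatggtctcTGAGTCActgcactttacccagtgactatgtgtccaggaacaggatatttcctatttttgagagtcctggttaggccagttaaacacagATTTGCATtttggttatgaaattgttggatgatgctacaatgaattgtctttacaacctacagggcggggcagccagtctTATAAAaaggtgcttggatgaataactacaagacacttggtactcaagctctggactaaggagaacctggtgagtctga
Sprr2f: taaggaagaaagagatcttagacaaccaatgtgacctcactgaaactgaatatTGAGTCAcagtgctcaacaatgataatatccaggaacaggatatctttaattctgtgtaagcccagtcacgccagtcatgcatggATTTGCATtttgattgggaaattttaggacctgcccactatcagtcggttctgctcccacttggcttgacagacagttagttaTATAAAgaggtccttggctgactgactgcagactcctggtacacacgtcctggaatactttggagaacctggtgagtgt
Sprr2i: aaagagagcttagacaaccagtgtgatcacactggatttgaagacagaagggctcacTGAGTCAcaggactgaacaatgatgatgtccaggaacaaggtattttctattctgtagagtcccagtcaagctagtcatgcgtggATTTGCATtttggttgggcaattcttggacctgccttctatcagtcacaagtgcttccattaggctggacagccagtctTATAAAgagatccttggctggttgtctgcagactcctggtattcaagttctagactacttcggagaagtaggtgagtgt
Ivl: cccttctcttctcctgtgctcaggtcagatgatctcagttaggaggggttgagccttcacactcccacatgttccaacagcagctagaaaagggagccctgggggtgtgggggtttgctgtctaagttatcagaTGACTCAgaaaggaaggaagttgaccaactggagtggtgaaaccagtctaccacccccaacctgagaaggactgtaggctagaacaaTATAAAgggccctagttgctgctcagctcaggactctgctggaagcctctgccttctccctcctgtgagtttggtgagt
Lce1h: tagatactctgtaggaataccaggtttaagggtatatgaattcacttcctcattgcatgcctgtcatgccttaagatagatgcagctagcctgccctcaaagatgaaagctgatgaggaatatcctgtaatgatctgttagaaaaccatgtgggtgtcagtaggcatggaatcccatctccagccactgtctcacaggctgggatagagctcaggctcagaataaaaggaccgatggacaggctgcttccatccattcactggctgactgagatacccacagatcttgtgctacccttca

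All 7 Sprr2 genes with a window held all 3 elements at nearly the same distances. Their AP-1 matches began 182 to 198 bases before the start, the octamer 108 to 112 bases before it and the TATA box 29 bases before it, and matches of different motifs did not overlap in these windows. Among all 32851 promoter windows of the same length, 7.81% held the AP-1 letters, 1.74% the octamer and 13.6% the TATA box. Of the 36 genes, 14 held the AP-1 letters (among them Ivl, Sprr1a, Sprr1b, Lor, Flg and Rptn, 1 of 10 S100a genes and 0 of 11 Lce genes), 7 the octamer, all of them Sprr2, and 20 the TATA box. A gene was counted when any of its windows matched, and some genes have several, so these counts and the shares of single windows are unlike measures. A composite C/EBP-ATF element (TGATGNAAT, 0.965% of all windows) and an interferon response element (GAAA and GAAA with NN between them, 3.44%) were found in 0 of the 36. The Sprr2h window was 81.8% identical to that of Sprr2k, whose log2 fold change was -0.27 (SE 0.16, adjusted p = 0.511), and 61.9% to 66.7% identical to those of the other 5 Sprr2 genes. Sprr2k averaged 7.95 in HF and 8.22 in MAZ1310 cultures, below the receptor level, so a fall as large as that of Sprr2h could hardly be read. A match of letters is a description of the sequence, and neither binding nor use of these elements was measured.

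**Figure D2:**
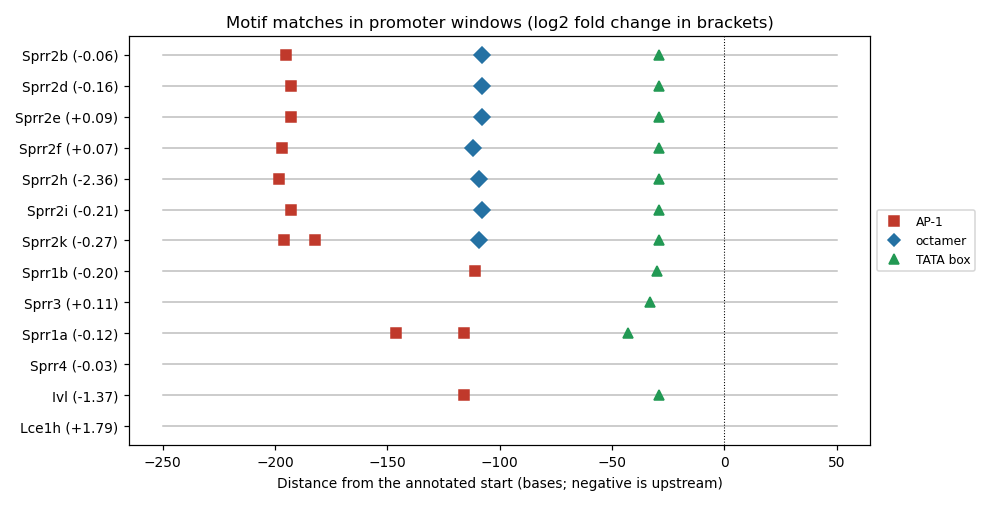
Positions of AP-1 (squares), octamer (diamonds) and TATA box (triangles) matches in the promoter windows of 13 genes, in bases from the annotated start, with each gene's log2 fold change, HF over MAZ1310, in brackets. The 7 Sprr2 windows share the arrangement. The 6 Sprr2 genes other than Sprr2h had means below the receptor level, where a fall of its size could hardly be read. The Lce1h window at the bottom holds no match.

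The remaining Sprr genes were not called either. Sprr1a and Sprr1b, envelope bridge proteins that are also known to rise in stressed or injured epithelia, were the only Sprr genes besides Sprr2h with a mean above the receptor level. Sprr1a read 11.46, 11.49 and 11.15 in HF cultures and 12.07, 10.81 and 11.59 in MAZ1310 cultures. The groups overlapped, and the log2 fold change of -0.12 (SE 0.31, adjusted p = 0.93) had a confidence interval of -0.85 to 0.60 and turned to 0.17 without MAZ1310 replicate 1. Sprr1b read 10.97, 10.92 and 11.33 in HF cultures and 10.94, 11.24 and 11.65 in MAZ1310 cultures, again overlapping (log2 fold change -0.20, SE 0.21, adjusted p = 0.786). Sprr3, known from esophageal epithelium, and Sprr4, a further Sprr protein, were dim, with log2 fold changes of 0.11 and -0.03.

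Ivl encodes involucrin, an early scaffold of the envelope and a partner of the Sprr proteins. Its log2 intensity was 7.07, 7.28 and 7.87 in HF cultures and 8.30, 9.06 and 8.98 in MAZ1310 cultures. No HF culture reached the lowest MAZ1310 culture. The means of 7.41 ± 0.41 in HF and 8.78 ± 0.42 in MAZ1310 cultures (SD, n = 3 each) gave a log2 fold change of -1.37 (SE 0.28), and the adjusted p of 0.0499 sat at the threshold. All HF cultures were below the receptor level and the MAZ1310 mean was barely above it, so here too no fold is read. Ivl is 1 of the 4 members with 2 probes. Both of its probes were lower in HF, the brighter at 7.69 in HF and 9.24 in MAZ1310 cultures (log2 fold change -1.55, adjusted p = 0.0845) and the dimmer at 7.12 in HF and 8.32 in MAZ1310 cultures (-1.19, adjusted p = 0.0364). The gene passed the test without MAZ1310 replicate 1 but with none of the other 5 cultures left out, where the adjusted p was 0.0596 to 0.168.

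The other added genes of the complex did not pass. Lor (loricrin, the bulk protein of the envelope in the epidermis), Flg (filaggrin, which bundles keratin filaments), Rptn (repetin, an envelope precursor) and Crct1 had log2 fold changes of -0.09 to 0.20 and adjusted p of 0.752 to 0.988. Their means over the cultures were 6.40 to 8.00, below the receptor level. The confidence intervals of these 4 genes lay within -0.53 to 0.64.

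**Figure D3:**
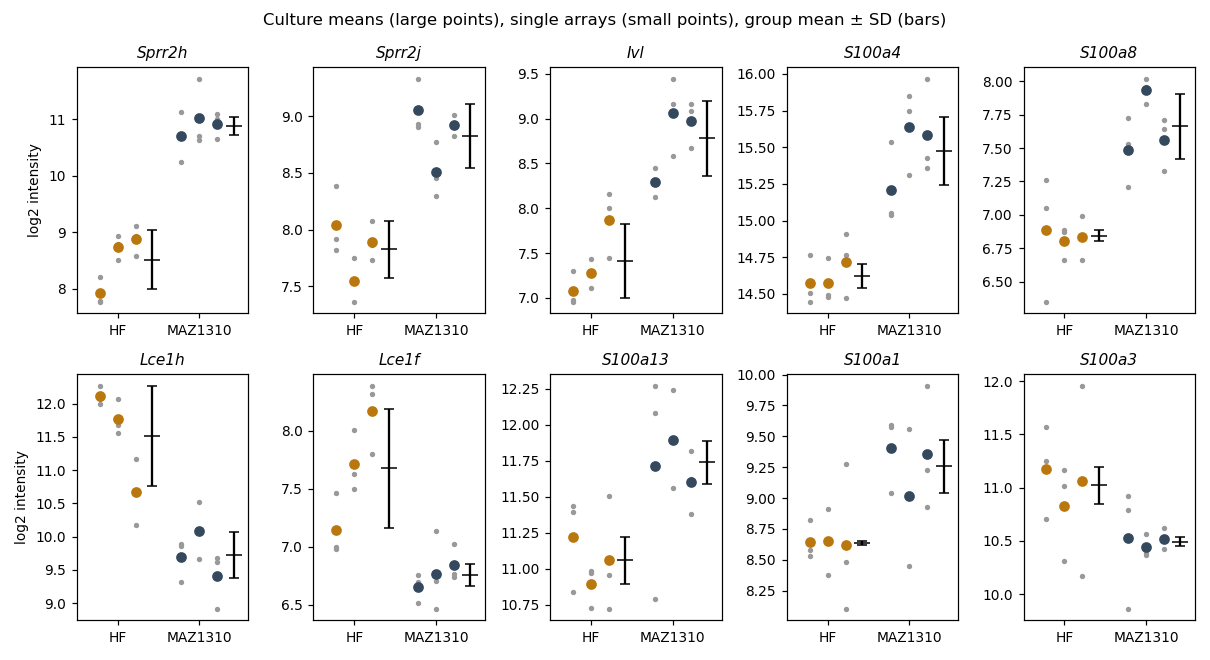
Log2 intensity of 10 genes in HF (left) and MAZ1310 cultures (right), with large points for the mean of each culture, small points for its technical arrays and bars for the group mean ± SD over 3 cultures. Culture means do not overlap in any panel, and for Sprr2h and S100a4 every HF array lies below every MAZ1310 array.

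By their mean over the 6 cultures, 7 of 12 S100a genes, 3 of 12 Sprr genes, 1 of 12 Lce genes and 0 of the 5 others lay above the receptor level, as did 40.0% of all genes. Of the S100a genes, S100a4 and S100a8 were lower in HF and 0 were higher. S100a4, a calcium sensor that binds non-muscle myosin and is known from motile cells, read 14.57, 14.57 and 14.72 in HF cultures and 15.21, 15.64 and 15.59 in MAZ1310 cultures. All 9 HF arrays were below all 9 MAZ1310 arrays. The means were 14.62 ± 0.08 in HF and 15.48 ± 0.23 in MAZ1310 cultures (SD, n = 3 each), a log2 fold change of -0.86 (SE 0.16, 1.81-fold lower, adjusted p = 0.0387). On 3 of the 9 MAZ1310 arrays and 0 of the 9 HF arrays its probe was tied at the top value of the array, so the MAZ1310 level was limited from above. Leaving out any culture other than MAZ1310 replicate 1 took the adjusted p to 0.0848 to 0.133, with the log2 fold change between -0.90 and -0.78.

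S100a8 and S100a9 encode the subunits of calprotectin, a complex abundant in neutrophils and also made by stressed keratinocytes. S100a8 read 6.89, 6.81 and 6.84 in HF cultures and 7.49, 7.94 and 7.56 in MAZ1310 cultures. The HF cultures lay within a narrow band below all MAZ1310 cultures, but both groups were under the receptor level of 8.75. The log2 fold change was -0.82 (SE 0.15, adjusted p = 0.0431), and leaving out any 1 culture took the adjusted p to between 0.0516 and 0.14. S100a9 read 6.96, 7.10 and 7.88 in HF cultures and 7.002, 7.85 and 7.88 in MAZ1310 cultures, and these overlapped (log2 fold change -0.27, SE 0.32, adjusted p = 0.821). The change of S100a8 was 0.55 more negative than that of S100a9 (SE 0.38, exact permutation p = 0.3, two-sided, where 3 cultures against 3 cannot go below 0.1), so the subunits were not shown to differ. Of 11 measured neutrophil and myeloid markers 0 were called, 2 (Ltf and Itgam) lay above the receptor level and Ptprc and Mpo lay below it. Their summed level, with the largest parts from Ltf and Itgam, was 11.07 to 11.28 in HF and 11.09 to 11.34 in MAZ1310 cultures.

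Besides these, 4 S100a genes had separated cultures without passing the test, namely S100a13, S100a1, S100a3 and, at the top of the scale, S100a10. With S100a4 and S100a8, 33.3% of the 12 S100a genes were separated downward and 16.7% upward, against 9.85% and 11.2% of all genes. S100a13, which takes part in the release of growth factors that lack a signal peptide, read 11.22, 10.89 and 11.06 in HF cultures and 11.72, 11.90 and 11.61 in MAZ1310 cultures (log2 fold change -0.68, SE 0.15, adjusted p = 0.0616). S100a1, best known as a calcium regulator in muscle, read 8.64, 8.65 and 8.62 in HF cultures and 9.40, 9.01 and 9.36 in MAZ1310 cultures (-0.62, SE 0.15, adjusted p = 0.0745). All HF cultures of S100a1 were below the receptor level, so its mean over both treatments is above that level only through the MAZ1310 cultures. S100a3, a protein of the hair cuticle, pointed the other way, with 11.18, 10.83 and 11.06 in HF cultures and 10.52, 10.44 and 10.52 in MAZ1310 cultures (0.53, SE 0.14, adjusted p = 0.0989). S100a3 and S100a4 are next to each other among the measured genes and had log2 fold changes of opposite sign, although S100a3 was not called. The difference between their log2 fold changes was 1.39 (SE 0.19, S100a3 minus S100a4), with an exact permutation p of 0.1, the smallest that 3 against 3 cultures allow. Adjusted over the tested pairs this p was 0.422, so an opposite change was not shown.

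S100a7a, a relative of the antimicrobial protein psoriasin, read 11.64, 11.13 and 11.26 in HF cultures and 12.14, 11.65 and 11.61 in MAZ1310 cultures, overlapping by 1 culture (log2 fold change -0.45, SE 0.21, adjusted p = 0.34). S100a5, S100a14 and S100a16 had log2 fold changes of 0.05, -0.08 and -0.12 and were below the receptor level. S100a14 is a current symbol but also an older name of S100a11, so the gene behind that probe is not certain. For S100a6 (calcyclin) and S100a10, the light chain of the annexin A2 complex, no fold can be given. S100a6 was at the top value of the array on all 18 arrays, and S100a10 on 8 of 9 HF and 6 of 9 MAZ1310 arrays. S100a6 read 16.00, 16.00 and 15.996 in HF cultures and 16.00, 15.86 and 15.98 in MAZ1310 cultures. S100a10 read 15.99, 16.00 and 15.996 in HF cultures and 15.89, 15.86 and 15.98 in MAZ1310 cultures. S100a10 is 1 of the 5 genes counted above with all HF cultures higher, and its values there are mostly the top values of the arrays. Among the 39 genes other than these, cultures were separated upward in 4 (10.3%, against 11.2% of all genes). They were separated downward in 7 (17.9%, against 9.85% of all genes), which include Sprr2h, picked for its fall.

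**Figure D4:**
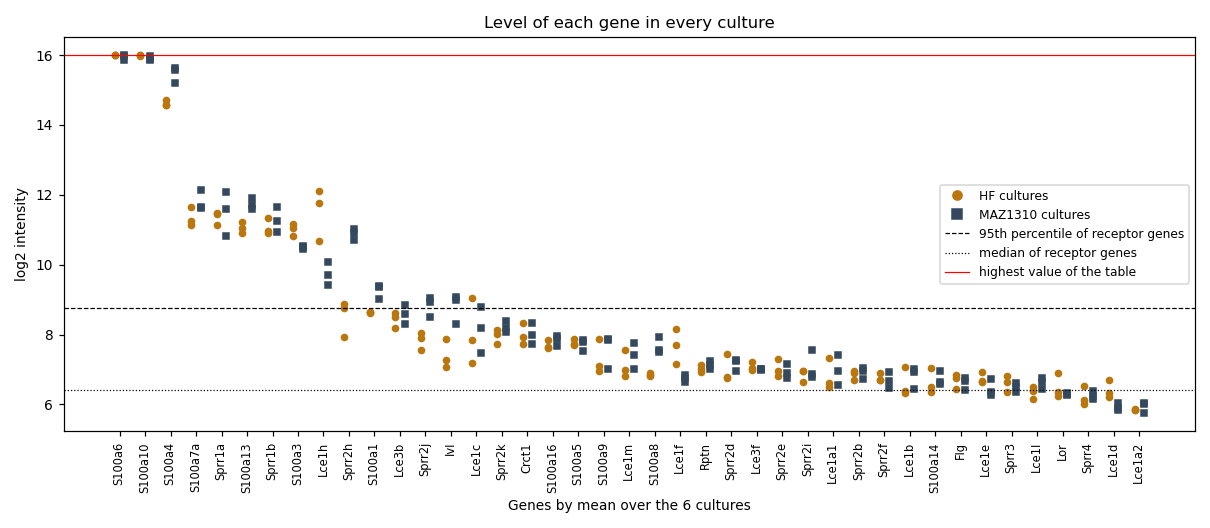
Log2 intensity of the 41 genes in each HF culture (circles) and each MAZ1310 culture (squares), ordered by the mean over the 6 cultures, with the median (dotted) and 95th percentile (dashed) of the receptor genes and the highest value of the table (red). Of the 41 genes 11 lie above the dashed line by their mean, and S100a6 and S100a10 lie at the red line.

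Of the Lce genes, late envelope proteins of the outer epidermal layers, 0 of 12 passed the test in either direction. Lce1h was the only one with a mean above the receptor level and leaned opposite to Sprr2h. It read 12.11, 11.77 and 10.67 in HF cultures and 9.69, 10.09 and 9.41 in MAZ1310 cultures. The groups did not overlap, with HF replicate 3 the nearest to the MAZ1310 cultures. The means of 11.52 ± 0.76 in HF and 9.73 ± 0.34 in MAZ1310 cultures (SD, n = 3 each) gave a log2 fold change of 1.79 (SE 0.37, 95% confidence interval 0.91 to 2.67, 3.45-fold), with an adjusted p of 0.0549. It passed under 7 of 17 alternative treatments of the data. These count the filter at the 99th percentile of the receptor genes, which kept Lce1h only through its HF cultures and is no support. Without HF replicate 3 the adjusted p was 0.024 (log2 fold change 2.21), and without any 1 of the other 5 cultures it was 0.102 to 0.182 (log2 fold change 1.49 to 1.97).

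Lce1f and Lce1d, which precede Lce1h on the chromosome, also had higher values in every HF culture. Lce1f read 7.15, 7.71 and 8.17 in HF cultures and 6.65, 6.77 and 6.84 in MAZ1310 cultures (log2 fold change 0.92, SE 0.25, adjusted p = 0.11). Lce1d read 6.20, 6.33 and 6.70 in HF cultures and 5.84, 5.91 and 6.04 in MAZ1310 cultures (0.48, SE 0.16, adjusted p = 0.197). Both were below the receptor level in all cultures. As for the Sprr2 genes, whether an Lce1 probe also takes up a paralog's transcript was not tested. Lce1e lies between Lce1d and Lce1f, and its cultures overlapped (0.29, SE 0.17, adjusted p = 0.512). On the other side, Lce1l had a log2 fold change of -0.27 (SE 0.15, adjusted p = 0.485), and the change of Lce1h was 2.05 above it (SE 0.38, exact permutation p = 0.1, the smallest possible).

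The 9 Lce genes other than these 3 had log2 fold changes of -0.28 to 0.29 and adjusted p of 0.485 to 0.965. Lce3b averaged 8.43 ± 0.22 in HF and 8.58 ± 0.27 in MAZ1310 cultures (SD, n = 3 each, log2 fold change -0.14, adjusted p = 0.839). Its probes stood far apart, the brighter at 9.85 in HF and 10.06 in MAZ1310 cultures and the dimmer at 7.02 in HF and 7.09 in MAZ1310 cultures. Lce1c varied most among cultures of the same treatment, with 9.04, 7.85 and 7.18 in HF and 8.78, 8.17 and 7.46 in MAZ1310 cultures, and its interval of -1.30 to 1.07 leaves a change of up to about that size undetectable here.

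**Figure D5:**
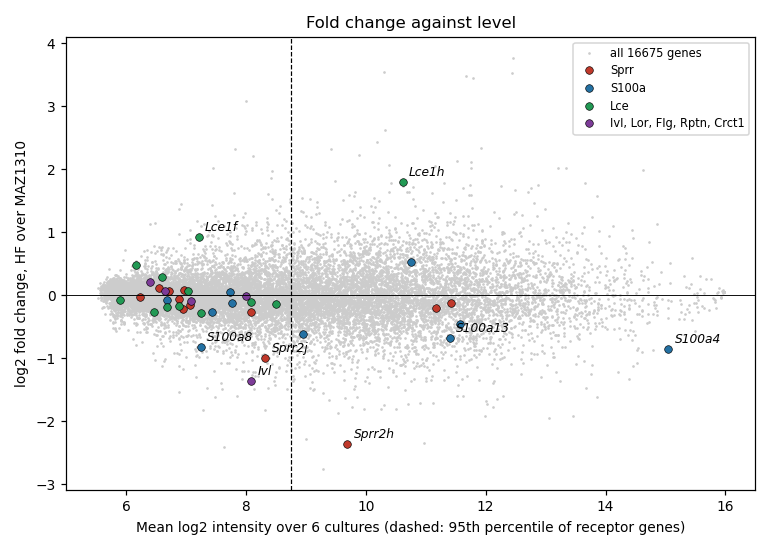
Log2 fold change, HF over MAZ1310, against the mean log2 intensity over the 6 cultures for all 16675 genes (grey) and for the members by family (colored), without S100a6 and S100a10. Among the members Sprr2h at -2.36 is the lowest and Lce1h at 1.79 the highest, both right of the dashed receptor level, and over all genes the values run from -2.76 to 3.77, while Ivl, Sprr2j and S100a8 lie left of it.

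Called genes lay on both sides of the receptor level. Of the 5 genes lower in HF, Sprr2h and S100a4 had a mean over the 6 cultures above it, Sprr2h only through its MAZ1310 cultures, and Sprr2j, Ivl and S100a8 did not. None of the 778 receptor genes was called. Of the 40 pairs of genes next to each other among those measured, the 38 without Sprr2h were tested for a difference in change, and 9 reached the smallest possible p of 0.1, with an adjusted p of 0.422 at best. Next to Sprr2j, the changes of Sprr2i and Sprr2k differed from it by 0.79 (SE 0.25, Sprr2i minus Sprr2j) and -0.73 (SE 0.27, Sprr2j minus Sprr2k), each with exact permutation p = 0.1. Between the members lie 7 other measured genes, of which 0 were called (log2 fold changes of -0.09 to 0.07). The means of all 7 were below the receptor level, where a fall could hardly be read. Among the 20 measured genes to either side of the interval 3 of 40 were called, all higher in HF. Over all genes 1.45% were called higher and 1.57% lower. The 3 were 1700094D03Rik (log2 fold change 1.42), Creb3l4, a membrane-bound CREB-family factor (1.45, adjusted p = 0.00558), and Tdrkh, a Tudor domain protein (0.90, adjusted p = 0.0478). Creb3l4 averaged 7.64 in HF and 6.19 in MAZ1310 cultures, both below the receptor level. The MAZ1310 means of 1700094D03Rik (7.865) and Tdrkh (8.216) were below it as well.

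Genes that work with these proteins but lie elsewhere were read beside the 3.02% of all genes called in either direction. Each list is small, so 1 called gene is not read as a result about its list. Of 19 measured cornified envelope proteins and cross-linking enzymes, 1 was lower and 0 were higher, with a median log2 fold change of 0.008. The lower one was Ppl (periplakin, a plakin on which the envelope is assembled), with 11.24, 11.88 and 11.80 in HF cultures and 12.61, 12.52 and 12.82 in MAZ1310 cultures (log2 fold change -1.01, SE 0.20, adjusted p = 0.0478). Tgm1, the transglutaminase that joins involucrin and Sprr proteins, averaged 6.99 in HF and 6.90 in MAZ1310 cultures, below the receptor level (0.10, adjusted p = 0.903). Of 28 transcription factors known in keratinocyte differentiation 1 was higher and 0 were lower, with a median of 0.10. This was Ets1, at 8.72, 8.54 and 8.92 in HF cultures and 7.22, 7.77 and 7.88 in MAZ1310 cultures (1.11, SE 0.21, adjusted p = 0.0412). The Ets1 means, 8.725 in HF and 7.619 in MAZ1310 cultures, were both below the receptor level. Of 8 measured S100 partners and receptors, 1 was higher, Ahnak, a giant scaffold that binds the S100a10 complex, with a mean of 9.63 ± 0.26 in HF and 8.54 ± 0.28 in MAZ1310 cultures (SD, n = 3 each, log2 fold change 1.09, adjusted p = 0.0387), and Anxa2 itself was at the top value on all 18 arrays. The MAZ1310 mean of Ahnak was below the receptor level. Of 8 measured genes on a list of other genes of the complex (7 between the members and Lingo4 beyond S100a10) and of 2 measured S100 genes outside the complex, 0 were called. By their means all of these lay below the receptor level.

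Among 10 basal and keratinocyte markers 0 were called, 3 lay above the receptor level (Krt14, Krt1 and Krt10) and the keratinocyte markers Krt5 and Trp63 lay below it. Their summed level ranged over 13.56 to 14.60 in HF and 12.82 to 14.69 in MAZ1310 cultures. This sum was mostly the Krt1 probe, which averaged 13.99 in HF and 13.58 in MAZ1310 cultures, so it says little about the other markers. Of 7 fibroblast and 4 adipocyte markers 0 were called and 0 lay above the receptor level. The part of other cell types in the falls of Sprr2h, Sprr2j, Ivl, S100a4 and S100a8 was not tested beyond these marker levels.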

How the data were processed

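NMuMG RNA was measured on single-color mouse whole genome OneArrays (Phalanx), labeled with Cy5. The deposited values are linear intensities, which the authors quantile-normalized across arrays, keeping only probes whose value was present and not negative throughout. The scanner and background correction are not given in the sources used here. The table holds 21973 probes, 21020 with 1 gene symbol from the platform annotation and 953 with none, and its values run from 36.4 to 65535. The lowest and highest array medians were 249.7 and 251.2. No detection call or count is given, so the few cultures per group set the precision, with a median SE of 0.178 for a log2 fold change.

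Intensities were log2 transformed, and the median over the probes of a gene and the mean over technical arrays were taken. HF and MAZ1310 cultures were compared with limma 3.58.1 in R 4.3.3 (lmFit, eBayes, treatment only, two-sided). Differences between adjacent genes used exact permutation over cultures. Promoter identity came from global alignment in Biopython 1.88.

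The members and the lists were chosen with earlier results of these data known. Named with values were all members called, all Sprr and S100a genes, Ivl, Lor, Flg, Rptn and Crct1, the 3 Lce genes with the smallest p and the 2 with the highest mean, with culture values for those called, the 5 next by p and the 5 with the highest mean. Lce1c, Lce1e, Lce1l, some culture values and the markers printed were added after the values were seen. Alternatives covered the summary over probes and arrays, scaling, dim genes, eBayes options, the adjustment, the replicate block and each culture left out.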

Additional observations from a re-analysis of the deposited data

Results flagged for a closer look

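Within the 9 arrays of a treatment, 5 of 78 gene and treatment combinations held 1 array that stood apart from the rest by Dixon's test, and chance alone flags about 5% of groups of independent arrays. They were S100a7a on MAZ1310 replicate 1, array 1 (log2 intensity 12.56, nearest array 12.03), Sprr2e on HF replicate 1, array 2 (7.80, nearest 7.15), Sprr2k on HF replicate 1, array 3 (7.16, nearest 7.78), Sprr1b on MAZ1310 replicate 1, array 1 (10.25, nearest 11.06) and Lce1m on HF replicate 1, array 1 (8.30, nearest 7.35). None of the 5 genes was called. S100a6 and S100a10 were not among these because of their top values. The 9 arrays are 3 technical arrays from each of 3 cultures and are not independent, so the 5% is only a rough guide.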

How the results depend on the processing

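The count of 5 members lower in HF went to 2 with the brightest probe of each gene (S100a4, Sprr2h), to 1 with the median over technical arrays (Sprr2h), to 2 of the 11 members left when genes under the receptor 95th percentile were dropped (S100a4, Sprr2h) and to 2 of 9 under the 99th (S100a4, S100a13). These filters use the mean over both treatments, which Sprr2h passes at the 95th percentile only through its MAZ1310 cultures and Lce1h at the 99th only through its HF cultures, so neither call there is support for the gene. It was 0 to 3 when 1 culture was left out, with 0 without HF replicate 2 and without MAZ1310 replicate 2, 1 without HF replicate 1, HF replicate 3 or MAZ1310 replicate 3, and 3 without MAZ1310 replicate 1. The count of 0 members higher was 0 to 1 when 1 culture was left out (1 without HF replicate 3), 3 with all 18 arrays and culture as a random block (Lce1d, Lce1f, Lce1h), and 1 (Lce1h) under each dim gene filter, with eBayes trend and robust, and with Storey q-values. The 11 members above the receptor level were 9 under its 99th percentile. Sprr1a ranged over log2 fold changes of -0.465 to 0.166 with 1 culture left out, the positive one without MAZ1310 replicate 1. Sprr2h was called under 14 of 16 alternatives (log2 fold change -2.54 to -2.07), S100a4 under 11 of 17, S100a8 under 7 of 15, Ivl under 7 of 15 and Sprr2j under 6 of 15. The 14 for Sprr2h count the 95th percentile filter, which is no support for it. Since Sprr2h was picked for its fall in these data, the other calls show only how far that value depends on processing. Over all genes, 242 higher and 262 lower became 891 and 901 with the replicate block, 615 and 513 with the random block, 133 and 189 with the median over technical arrays, and 15 to 204 per direction with 1 culture left out.

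With the replicate number as a block, 3 members were higher (Lce1f, Lce1h, S100a3) and 8 lower, S100a1, S100a7a and S100a13 being added to the 5. Deviations of same-numbered cultures correlated by 0.672, 0.0792 and 0.69 for replicates 1, 2 and 3. The crossed values were -0.685 for HF replicate 3 with MAZ1310 replicate 1 and -0.623 for HF replicate 1 with MAZ1310 replicate 3. MAZ1310 replicate 2 correlated best with HF replicate 3 (0.265). Cultures numbered 1 and 3 thus deviated together and those numbered 2 hardly did. The labels name no pairs, so the main comparison used treatment only, and the counts depend on that choice. Dim probes and the top values of the arrays limit the smallest and largest levels read here.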
